A study of Mus musculus with 14 samples.

Results

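Trimethylation of lysine 4 of histone H3 (H3K4me3) was mapped in 25431 peaks. Of these, 1095 were centred inside a protein-coding gene, away from the starts of transcription that GENCODE lists, and lay off every putative enhancer. A peak belonged to these intragenic TSS-distal peaks when its centre was over 3 kb from every GENCODE transcription start site (TSS) and within the body of a protein-coding gene. In addition, it had to lie over 1 kb from any tRNA gene and to share no base with a putative enhancer. Chromosome 15 and a 25 Mb segment of chromosome 10 that ends at 130 Mb were left out. Of 4869 peaks over 3 kb from a TSS, 4217 lay outside the left-out regions, and 161 of these were within 1 kb of a tRNA gene. The sets used for comparison were 449 intragenic TSS-distal peaks on a putative enhancer, 1860 intergenic TSS-distal peaks without one, and 16668 promoter peaks with a centre within 1 kb of a TSS.

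The cells were clone NG3, a single clone of immortalised mouse embryo fibroblasts (iMEFs) that carry a Cre-ER recombinase and floxed Ash2l alleles with exon 4 deleted, and that live on a lentiviral fusion of human ASH2L with FKBP12F36V (FKBP-HA2-ASH2L). The compound dTAG tethers FKBP to an E3 ligase, which leads to degradation of the fusion. ChIP-seq libraries were made from untreated cells and from cells treated with dTAG for 30 min, 2 h, 4 h, 8 h or 16 h, with 2 H3K4me3 libraries in each of the 6 groups and 2 inputs. All groups share the deletion and the fusion protein. The peaks analysed here are positions only, a single union list over all samples. It gives no depth and no replicate values, so time points were not compared here. Intervals below are 95% Wilson intervals for shares, Newcombe intervals for differences and Poisson intervals for densities. They cover counting error only, and regions are not replicates, so no p-value is given. Of 14 fibroblast markers, 12 had a peak at the promoter, with Dcn and Lum as the exceptions, compared with 2 of 12 markers of other cell types (Epcam and Cdh1).

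H3K4me3 is deposited by KMT2 (COMPASS) complexes, which need the core subunits ASH2L, WDR5, RBBP5 and DPY30, and it is removed by demethylases of the KDM5 family. The mark is best known from nucleosomes around active promoters, and it often covers CpG islands, to which several KMT2 complexes are recruited through CpG-binding subunits. Enhancers carry mainly monomethylated H3K4, whereas the bodies of transcribed genes carry methylation of H3 lysine 36. Away from annotated starts, H3K4me3 has been described at unannotated promoters and at some active enhancers.

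The sequences show how unlike each other these peaks were. All are read on the plus strand of mm10 (RefSeq GRCm38.p6). The first pair holds up to 300 bp around the centre of the widest peak, in Tnrc18, and of the most CpG-dense peak of at least 300 bp, in a coding exon of Otud7a, with each CpG in capitals.
Tnrc18, chr5:142814150-142814449: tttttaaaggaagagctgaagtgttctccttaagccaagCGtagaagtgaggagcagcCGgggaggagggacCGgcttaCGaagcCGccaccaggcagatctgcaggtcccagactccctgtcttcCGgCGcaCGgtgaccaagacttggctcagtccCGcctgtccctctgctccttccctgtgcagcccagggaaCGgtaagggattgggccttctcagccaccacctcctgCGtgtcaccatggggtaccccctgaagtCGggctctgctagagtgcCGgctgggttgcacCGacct
Otud7a, chr7:63758332-63758631: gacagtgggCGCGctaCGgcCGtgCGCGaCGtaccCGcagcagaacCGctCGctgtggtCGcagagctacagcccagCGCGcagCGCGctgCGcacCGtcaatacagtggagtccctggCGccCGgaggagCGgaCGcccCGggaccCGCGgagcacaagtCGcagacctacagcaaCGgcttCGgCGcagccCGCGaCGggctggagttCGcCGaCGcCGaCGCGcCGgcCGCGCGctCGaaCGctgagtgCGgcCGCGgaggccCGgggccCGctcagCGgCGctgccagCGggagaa
The Otud7a window held 51 CpGs and 74.7% GC, compared with 14 CpGs and 61.3% GC in Tnrc18. The next 3 are whole peaks, shown because most peaks were of this kind, and CpGs are again in capitals. They are a peak of the median width of 241 bp in Dpp6, a peak of the shortest width of 200 bp in Alkal1, and a peak in Rbfox1, a gene that held as many peaks as any.
Dpp6, chr5:27015233-27015473: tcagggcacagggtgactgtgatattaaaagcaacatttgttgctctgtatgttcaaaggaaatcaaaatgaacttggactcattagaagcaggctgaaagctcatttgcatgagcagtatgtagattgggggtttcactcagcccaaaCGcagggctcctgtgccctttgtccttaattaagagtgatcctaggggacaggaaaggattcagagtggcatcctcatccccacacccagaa
Alkal1, chr1:6362612-6362811: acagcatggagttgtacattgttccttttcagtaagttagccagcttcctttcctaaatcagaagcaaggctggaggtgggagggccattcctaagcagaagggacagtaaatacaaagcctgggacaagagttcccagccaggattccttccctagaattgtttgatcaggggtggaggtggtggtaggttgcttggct
Rbfox1, chr16:5942416-5942690: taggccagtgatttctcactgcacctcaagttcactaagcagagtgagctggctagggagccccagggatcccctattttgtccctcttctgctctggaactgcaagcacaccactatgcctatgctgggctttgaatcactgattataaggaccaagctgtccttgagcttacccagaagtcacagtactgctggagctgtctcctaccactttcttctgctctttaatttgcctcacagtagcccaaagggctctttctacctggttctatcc
These 3 had 46.1%, 49.0% and 49.8% GC, and held 1, 0 and 0 CpGs. The last 3 windows of 300 bp show the motifs whose shares set these peaks apart most from enhancer peaks (AP-1), promoter peaks (SP/KLF) and intergenic peaks (RUNX), with the motif on either strand in capitals.
Snx33, chr9:56924671-56924970: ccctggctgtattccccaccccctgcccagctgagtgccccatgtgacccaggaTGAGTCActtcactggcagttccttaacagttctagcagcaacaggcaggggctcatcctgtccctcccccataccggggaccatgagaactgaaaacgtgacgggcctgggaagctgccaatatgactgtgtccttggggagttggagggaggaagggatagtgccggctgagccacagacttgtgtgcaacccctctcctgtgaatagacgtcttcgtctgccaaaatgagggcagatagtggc
Nova2, chr7:18958029-18958328: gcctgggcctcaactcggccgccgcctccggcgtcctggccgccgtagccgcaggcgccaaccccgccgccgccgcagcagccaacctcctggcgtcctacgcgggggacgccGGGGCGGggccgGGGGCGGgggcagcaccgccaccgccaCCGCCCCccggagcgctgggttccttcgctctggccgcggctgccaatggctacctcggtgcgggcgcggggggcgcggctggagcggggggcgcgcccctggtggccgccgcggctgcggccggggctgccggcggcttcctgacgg
Flrt2, chr12:95698230-95698529: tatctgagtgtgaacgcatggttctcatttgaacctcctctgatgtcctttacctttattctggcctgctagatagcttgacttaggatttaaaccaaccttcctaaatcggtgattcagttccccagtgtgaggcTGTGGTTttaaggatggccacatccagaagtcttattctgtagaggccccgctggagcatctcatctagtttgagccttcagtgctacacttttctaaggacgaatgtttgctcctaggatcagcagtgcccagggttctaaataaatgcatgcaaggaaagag

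Most of the intragenic peaks were short. Their median width was 241 bp and the quartiles were 202 and 348.5 bp. Of the 1095 peaks, 255 (23.3%, interval 20.9 to 25.9) had the shortest width in the list, 200 bp. Under 300 bp were 752 peaks (68.7%), whereas 137 (12.5%) reached 500 bp. Enhancer peaks in genes were wider, with a median of 335 bp, and 30.5% of them reached 500 bp. The interval of the difference in this share was -22.8 to -13.4 percentage points. Intergenic peaks were slightly shorter. Their median was 234 bp, and 72.8% were under 300 bp (difference -4.12 points, interval -7.55 to -0.737). Of the intergenic peaks 10.4% reached 500 bp, a difference of 2.14 points whose interval, from -0.211 to 4.60, includes 0. Promoter peaks had a median of 948 bp.

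**Figure D1:**
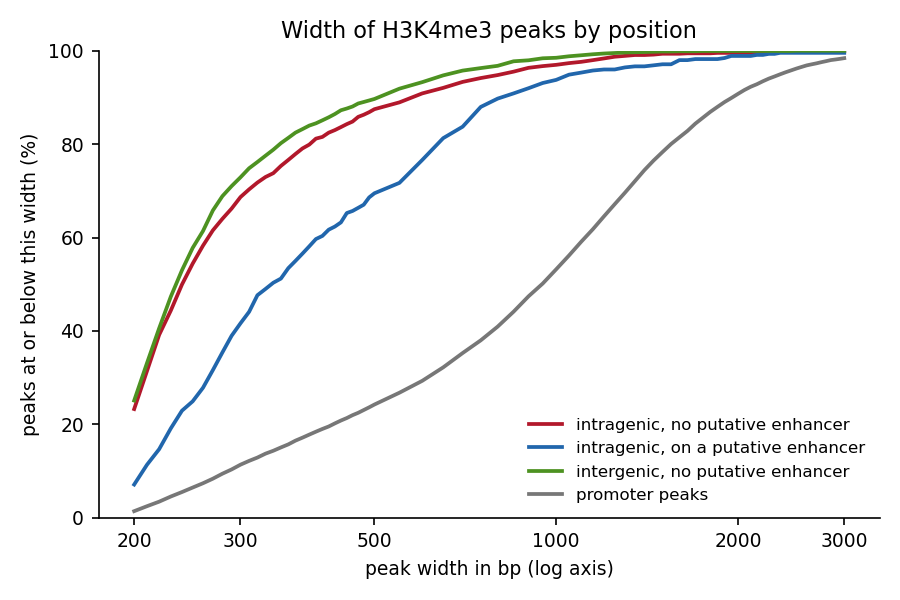
Cumulative share of peaks (%) by width in bp (log axis) for the 4 sets of peaks, 1 line each. The lines of the intragenic and intergenic peaks without an enhancer lie close together and start at 23.3% and 25.1% at 200 bp, whereas promoter peaks start at 1.43%.

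The 5 widest peaks were in Tnrc18 (6692 bp), Gm20388 (2407 bp and 2142 bp), Arhgap23 (2354 bp) and Fhl3 (2136 bp), which encodes a LIM domain protein. All 5 were centred in introns. The Tnrc18 peak is distal by its centre only, which lay 3080 bp from a TSS. It was the only peak of the 1095 with a TSS inside it, and the other 1094 had no base within 1 kb of one. Gm20388 is a GENCODE record of 4435 kb that spans many other genes. RefSeq places the start of a computed mRNA model of Zfp469, which encodes a zinc finger protein, 479 bp from the centre of its 2142 bp peak. Computed models of Arhgap23 and Fhl3 also start 878 bp and 930 bp from the centres of their peaks. At the 3 kb limit, the nearest peaks inside were in Enc1 (3003 bp), Rbsn (3006 bp) and Alkbh5 (3009 bp). The nearest outside were in Rimklb (3000 bp), Loxl1 (2992 bp) and Tmem119 (2992 bp).

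Short peaks were alike in base composition. In a 200 bp window at the centre, the peaks under 300 bp had a median GC content of 49.5% with an SD of 4.00 percentage points over the 752 peaks, and 85.8% of windows were between 45% and 55% GC. Windows of the same size 5 kb away had a median of 44.0% upstream and 44.5% downstream, with SDs of 8.02 and 7.83, and 40.2% and 42.4% of them were in this range. The sequence available to these peaks, defined as bases inside protein-coding genes over 3 kb from every TSS, had a GC content of 42.2%. Peaks of exactly 200 bp were narrower still in composition (SD 3.16, 91.0% in the range). Intergenic peaks under 300 bp gave nearly the same values, with a median of 49.5%, an SD of 4.18 and 88.7% in the range. Promoter peaks under 300 bp had a similar median of 50.5% but a wider spread (SD 7.68, 64.3%). Enhancer peaks in genes under 300 bp were closer. In windows of 300 bp, 82.2% of them were in the range, compared with 87.2% of the intragenic peaks under 300 bp. The interval of this difference, -0.415 to 11.6 points, includes 0. Most peaks under 300 bp thus shared a GC content close to that of the Dpp6, Alkal1 and Rbfox1 sequences above. How GC content affected the yield of the libraries could not be read from positions and was not tested.

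**Figure D2:**
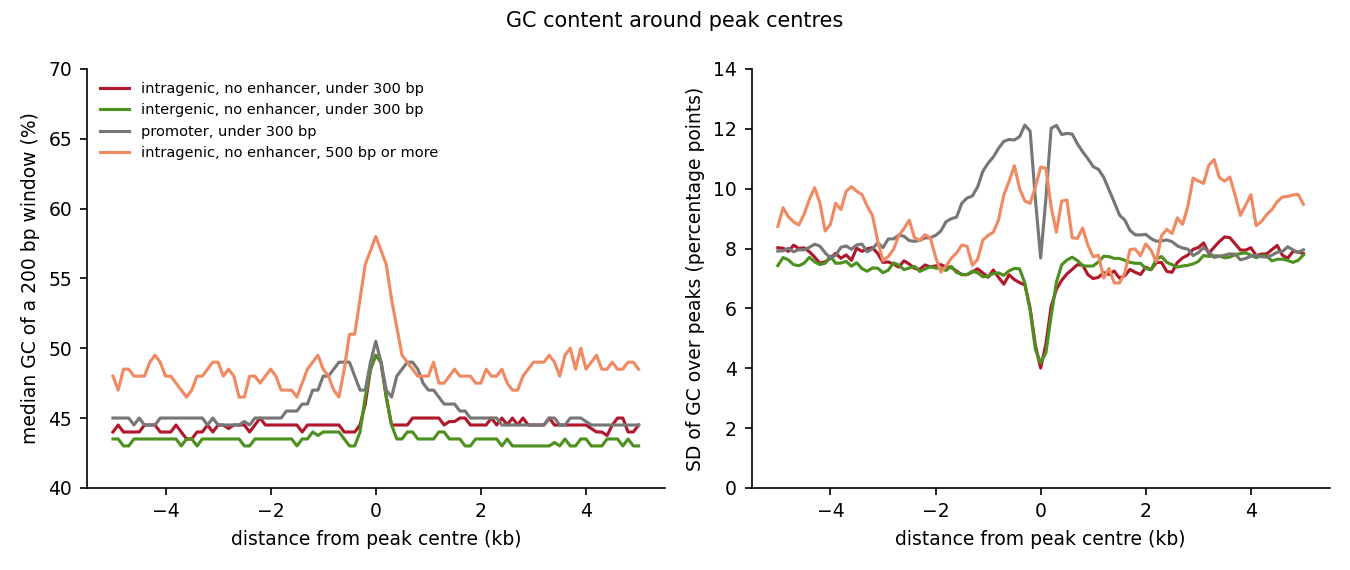
Median GC content (%) of 200 bp windows (left) and its SD over peaks in percentage points (right), by distance from the peak centre in kb. At the centre of intragenic and intergenic peaks under 300 bp the SD drops to 4.00 and 4.18, while peaks of 500 bp or more rise to a median of 58.0% GC.

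Wide peaks were of another kind. The 137 peaks of 500 bp or more had a median central GC content of 58.0% and 5.66 CpGs per 100 bp on average, compared with 1.41 in the peaks under 300 bp. CpG islands, which were called from the reference sequence, overlapped 58 of them (42.3%, interval 34.4 to 50.7) and 0 of the 255 peaks of 200 bp (upper bound 1.48%). Between these, the share was 2.21% at over 200 and under 300 bp, and 14.1% at 300 to under 500 bp. In total 98 peaks (8.95%) were on an island, compared with 54 of 449 enhancer peaks in genes, 9.62% of intergenic peaks and 74.0% of promoter peaks. The differences from enhancer and intergenic peaks have intervals that include 0 (-6.75 to 0.182 and -2.78 to 1.55 points).

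Peaks on islands within genes were often in coding exons and towards the end of the gene. Of 98 peaks on an island, 41 (41.8%) were centred in a coding exon, compared with 90 of all 1095 (8.22%), and 35 of the 97 with a single host gene (36.1%) were in the last 20% of that gene, compared with 211 of all 1072 with a single host gene (19.7%). The 5 most CpG-dense peaks of at least 300 bp were in Otud7a (17.4 CpGs per 100 bp), Garem2 (16.0), Snx20 (15.2), Srcin1 (14.9) and Prdm12 (13.5). Otud7a encodes a deubiquitinase, Garem2 an adaptor of growth factor signalling, Snx20 a sorting nexin, Srcin1 an inhibitor of the Src kinase and Prdm12 a transcription factor of sensory neurons. Except for Srcin1, these peaks were centred in coding exons, and that of Otud7a lay at 99.8% of the gene's length. Promoters of Otud7a, Garem2 and Srcin1 carried a peak, whereas those of Snx20 and Prdm12 did not. Most islands at such positions had none: of 1248 islands in genes over 3 kb from every TSS, 146 (11.7%, interval 10.0 to 13.6) overlapped a peak of any kind, compared with 35.7% of 952 islands outside genes and 82.3% of 12936 islands within 1 kb of a TSS. Islands in genes with a peak were longer, at a median of 497 bp, than those without, at 302 bp. Where islands without a peak lie along their genes was not measured. The shares in coding exons and at the gene end are thus not compared with those islands.

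**Figure D3:**
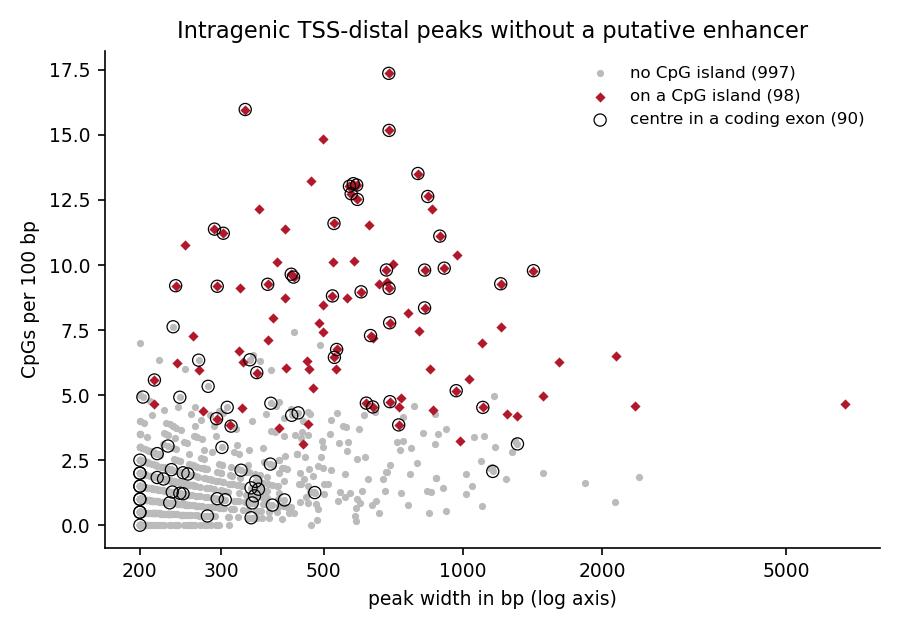
Each point is 1 of the 1095 peaks, by width in bp (log axis) and CpGs per 100 bp, with red diamonds for the 98 peaks on a CpG island and circles around the 90 centred in a coding exon. Most peaks crowd at the lower left under 300 bp, and the islands in coding exons lie at the top, up to 17.4 CpGs per 100 bp in Otud7a.

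Along the host genes, 955 of 1095 peaks (87.2%) were centred in introns and 140 (12.8%, interval 10.9 to 14.9) in exons, of which 90 were coding, 40 untranslated and 10 of noncoding transcripts. Exons made up 6.04% of the available bases. The exonic share rose with width, from 7.84% of the 200 bp peaks to 32.1% of those of 500 bp or more (interval 24.9 to 40.3). Enhancer peaks in genes had a similar exonic share of 11.4%, and the interval of the difference, -2.33 to 4.78 points, includes 0. First introns held 336 of 939 intronic peaks with an assigned intron (35.8%), compared with 43.3% of enhancer peaks (difference -7.48 points, interval -13.3 to -1.71). Repeats masked in the reference covered over 50% of the bases in 82 peaks (7.49%), compared with 17.1% of intergenic and 2.90% of enhancer peaks in genes.

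Peak density was highest close to the 3 kb limit. From 3 to 5 kb there were 2.84 peaks per Mb of available sequence (interval 2.51 to 3.20). At 5 to 10 kb the density was 1.45 per Mb (1.27 to 1.65), and over 100 kb from a TSS it was still 0.865 per Mb (0.633 to 1.15). Enhancer peaks in genes fell from 0.937 to 0.132 per Mb between the same first and last bins. Intergenic peaks fell from 2.06 to 0.724 per Mb. The median width of the intragenic peaks was 302 bp at 3 to 5 kb and 211 bp over 100 kb, where 0 of 46 peaks reached 500 bp.

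**Figure D4:**
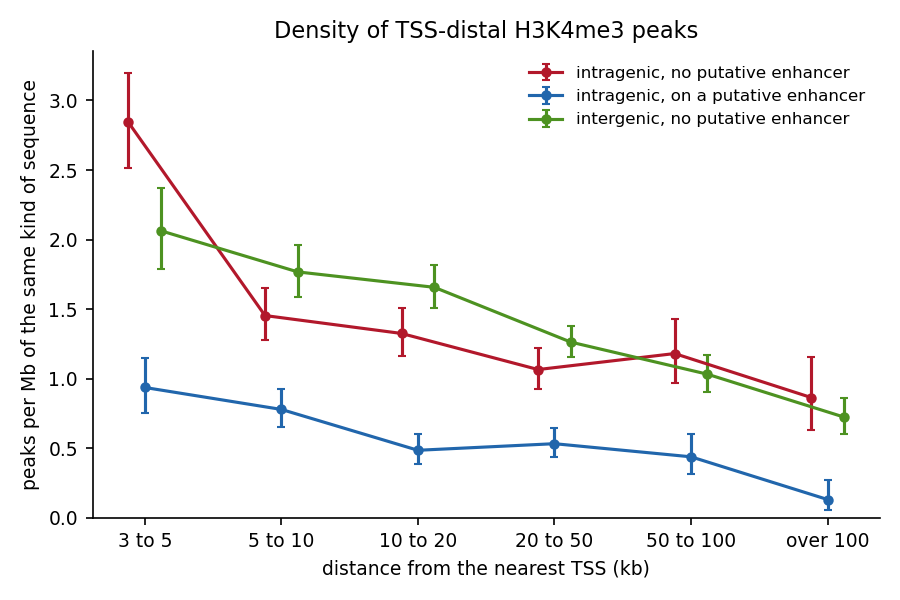
Peaks per Mb of available sequence of the same kind (inside or outside protein-coding genes), by distance from the nearest TSS in kb, with 95% Poisson intervals. The density of intragenic peaks without an enhancer is 2.84 per Mb at 3 to 5 kb and 0.865 per Mb over 100 kb, and that of enhancer peaks ends at 0.132 per Mb.

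Part of the peaks near the limit stood beside other peaks. Another peak lay within 1 kb of 197 peaks (17.99%) and within 5 kb of 322 (29.4%, interval 26.8 to 32.2). The latter share was 17.8% for intergenic peaks (difference 11.6 points, interval 8.43 to 14.8). With centres over 5 kb from a TSS alone, the difference from intergenic peaks was 1.71 points (-1.29 to 4.88). Enhancer peaks in genes had neighbours more often, 27.2% within 1 kb and 36.7% within 5 kb. For 5 kb the difference from these was -7.34 points (-12.6 to -2.20). At 3 to 5 kb, 184 of 273 peaks (67.4%) had a neighbour within 5 kb, compared with 8 of 151 (5.30%) over 50 kb from a TSS. Of the 197 peaks with a neighbour within 1 kb, the nearest was another of the 1095 in 109, a peak centred 1 to 3 kb from a TSS in 63, a promoter peak in 12 and an enhancer peak in 11.

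Grouping only the 1095 peaks, by distances of up to 5 kb from each other, gave 70 clusters, of which 16 held 3 or more. The other 929 had none of the 1095 within 5 kb. Some of these had a peak of another set that close, since 322 had a neighbour of any kind within 5 kb. The largest cluster was in Smad7, which encodes an inhibitor of TGF-beta signalling. It held 7 peaks of 217 to 358 bp within 7055 bp of the last intron, and another peak of 624 bp stood closer to the promoter. Nfix, which encodes a transcription factor of the nuclear factor I family, held 5 peaks in 7038 bp of the first intron, of 534, 271, 1610, 559 and 229 bp, and a computed RefSeq model of Nfix starts 31 bp from the centre of the first. Clusters of 4 were in Actn1 (alpha-actinin, which crosslinks actin), Rnd3, Cald1 (caldesmon, an actin-binding protein) and Tcf7l2 (a transcription factor of the Wnt pathway), within 2688 to 4633 bp. Whether such a row is a single broad domain split by the peak caller was not tested. Merging all peaks within 1 kb of each other left 933 peaks that met the rule.

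The host gene's promoter carried a peak of its own for 745 of 1095 peaks (68.0%, interval 65.2 to 70.7). For enhancer peaks in genes this was 90.2%, a difference of -22.2 points (-25.9 to -18.1). Genome-wide, 59.1% of 21938 protein-coding genes carried one. Genes with a promoter peak, however, held 593 of the 785 Mb of available sequence summed over genes. Per Mb they held 1.27 of the intragenic peaks, compared with 1.92 in genes without one. At least 1 intragenic peak was found in 5.40% and 4.27% of these genes. Among the intragenic peaks, the share with a host promoter peak fell with distance. It was 83.9% for peaks 3 to 5 kb from a TSS and 68 of 151 (interval 37.3% to 53.0%) over 50 kb. It rose with width, from 153 of 255 at 200 bp to 81.0% at 500 bp or more.

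Among the longest genes, those without a promoter peak held intragenic peaks more often. In genes with over 300 kb of available sequence, 58 of 107 genes without a promoter peak (54.2%, interval 44.8 to 63.3) held at least 1 of the peaks, compared with 30.8% of 341 genes with one (26.1 to 35.9). The densities were 2.24 and 0.796 peaks per Mb. In genes with less than 10 kb of available sequence the order was the other way round, with 2.46 peaks per Mb in genes without and 4.37 per Mb in genes with a promoter peak. Overall 824 of 16495 genes with available sequence (5.00%) held a peak. Of the 824, 654 held 1, 107 held 2 and 3 held 10.

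The 5 host genes with the most peaks were Rbfox1, Sdk1 and Tmem132d with 10 each, and Gm20388 and Smad7 with 8 each. Rbfox1 encodes a splicing factor, Sdk1 a cell adhesion molecule and Tmem132d a membrane protein, all known from neurons, and none of the 3 promoters had a peak. Their peaks were mostly short. In Tmem132d all 10 peaks were 200 to 287 bp wide with 48.1% to 51.5% GC, and the nearest other peak was 2313 to 22702 bp away. In Sdk1 widths ranged from 200 to 348 bp, and the nearest other peak was 19639 to 116772 bp away. Rbfox1 held 9 peaks of 200 to 289 bp and 1 of 821 bp, which lay 480 bp from a curated RefSeq start of Rbfox1 that the GENCODE set lacks. Per Mb of available sequence the 3 genes held 6.75, 10.9 and 16.2 peaks. Smad7, with 18.02 kb of available sequence, held 444 per Mb.

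Short peaks were not spread evenly over the genome either. In 521 windows of 5 Mb, intragenic and intergenic peaks under 300 bp without an enhancer together had a median density of 0.761 per Mb, with quartiles of 0.416 and 1.41. The highest value was 8.53 per Mb on chromosome 5 between 125 and 130 Mb, the window that holds Tmem132d, with 15 intragenic and 21 intergenic peaks. The window on chromosome 16 from 5 to 10 Mb, with Rbfox1, held 13 and 10 (5.01 per Mb). Between chromosomes, the density of the intragenic peaks ranged from 0.849 per Mb on X to 2.14 per Mb on chromosome 7, apart from Y with a single peak.

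Gene lists were described by their counts beside those of all genes, of which 5.00% held a peak at 1.43 peaks per Mb. The share with a peak rose with available sequence, so all genes are no match for lists of longer genes. Median available sequence was 15.1 kb over all genes. It was 115.6 kb for fibroblast factors, 113.1 kb for adhesion and actin genes and 123.8 kb for receptors. Of genes with 100 to 300 kb and a promoter peak, 13.96% held a peak, at 1.19 per Mb. For matrix genes the median was 52.2 kb. Of genes with 30 to 100 kb and a promoter peak, 6.08% held one. Among KMT2 complex subunits, 2 of 16 genes with available sequence held a peak, namely Ash2l with 3 and Kmt2a, which encodes a catalytic subunit, with 1 peak of 240 bp in its first intron, which makes 4 peaks at 7.09 per Mb. None of the 7 H3K4 demethylase genes held one (0 of 7), in 292 kb of available sequence. Of 41 genes of fibroblast transcription factors, 10 held a peak, at 3.33 per Mb, with Smad7 (8), Nfix (5) and Foxp1 (2) in front. Of 37 collagen and matrix genes, 8 held a peak, at 4.64 per Mb. Thbs1 (thrombospondin 1) had peaks of 478 and 1048 bp, Sparc (a matrix protein that binds collagen) had 543 and 476 bp, and Fn1 (fibronectin) had 331 and 370 bp.

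Of 31 adhesion and actin genes, 10 held a peak, at 5.28 per Mb, led by Actn1 (5 peaks of 246 to 510 bp), Cald1 (4 of 264 to 637 bp) and Macf1 (3 of 280 to 598 bp), which encodes a linker of microtubules and actin. Of 20 growth factor receptor genes, 6 held a peak, at 2.90 per Mb. Fgfr2 had 6 and Ntrk3, the receptor of neurotrophin-3, had 5, mostly short, whereas the insulin receptor gene Insr had a single peak of 1306 bp. The Fgfr2 record of GENCODE spans 2961 kb, and only 1 of its 6 peaks lay in the RefSeq gene of that name. Of 19 long neuronal genes, 11 held a peak, at 1.28 per Mb. Among all genes with over 300 kb of available sequence, 30.8% with a promoter peak held one, at 0.796 per Mb. Without a promoter peak 54.2% did, at 2.24 per Mb. Rbfox1, Dab1 (6 peaks of 200 to 254 bp, an adaptor of reelin signalling) and Csmd1 (5 of 200 to 231 bp) led this list. Of 6 genes that the study followed and that had available sequence, 2 held a peak, which makes 4 peaks at 29.6 per Mb. These were Ash2l with 3, already counted above, and Zfp503, which encodes a zinc finger repressor. Zfp503 held 1 peak of 358 bp on a CpG island in its coding exon. Of the marker genes with available sequence, 2 of 11 for fibroblasts and 0 of 6 for other cell types held a peak.

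Ash2l stood out by the shape of its peaks. The gene carried 12 peaks, of which 10 were 319 to 387 bp wide and all 10 of these touched a coding exon. Coding exons of the GENCODE transcripts merge to 16, and 14 of these lay under a peak. In 8 peaks the exon was wholly inside and the centres of peak and exon were at most 25 bp apart. No other gene had more than 2 such peaks of 250 to 450 bp. These limits of width and distance enclose the values of the Ash2l peaks themselves, so the count describes them and is no test. The gene with 2 was Rap1gap and 88 genes had 1. Of the 10 peaks, 3 are over 3 kb from every TSS and belong to the 1095. They measured 356, 387 and 348 bp, and their centres lay 30.5, 1 and 18.5 bp from the centres of coding exons, of which the latter pair measure 99 and 93 bp. Their GC contents of 45.8%, 37.5% and 42.5% were low for these peaks, whose lower quartile was 48.2%. They were the 3 peaks closest to the 3′ end of the gene.

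**Figure D5:**
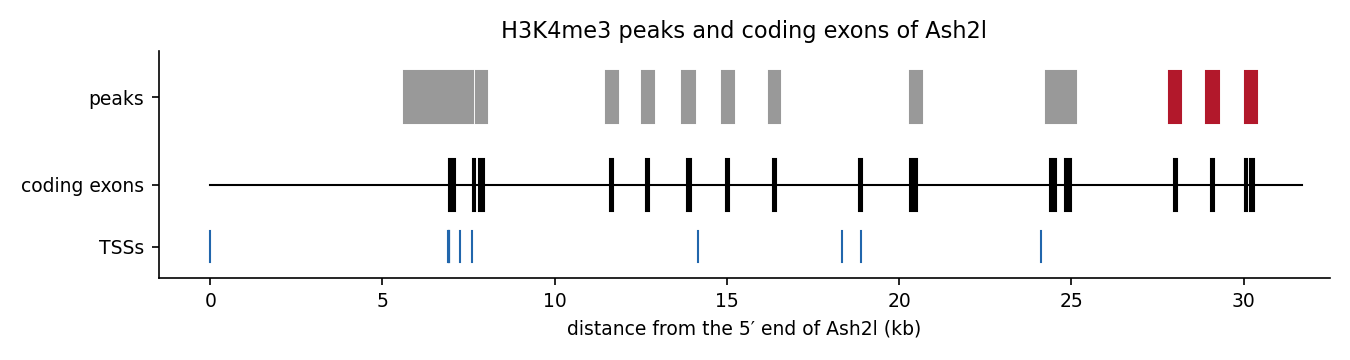
Peaks (top row, red for the 3 that belong to the set and grey for the others), coding exons (black boxes) and GENCODE TSSs (blue ticks) of Ash2l, by distance from the 5′ end of the gene in kb. Each of the 12 peaks touches a coding exon, and 8 of the narrow ones are centred within 25 bp of an exon's centre.

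The cells carry an ASH2L coding sequence of human origin without introns, and FKBP and oestrogen receptor sequences as parts of the fusion protein and of Cre-ER. The genes of these parts were therefore looked up, after their values had been seen. Fkbp1a, which encodes FKBP12, held 1 of the 1095 peaks, 361 bp wide, and its centre was 17 bp from that of a coding exon of 113 bp (-17 bp on the plus strand). Esr1, which encodes oestrogen receptor alpha, held 1 peak of 248 bp, wholly within a coding exon of 336 bp and 4 bp from its centre (-4 bp). Of the 1095 peaks, 21 held a whole coding exon with centres at most 25 bp apart. In the whole list of 25431 peaks 796 did so. Both counts have no limit of width. The whole list is mostly promoter peaks, with a median width of 948 bp compared with 241 bp for the 1095. The 2 shares are therefore not matched for width or position. Of the 21, 2 were in Ash2l and 1 in Fkbp1a, and the rest were in other genes. Whether reads from the constructs contribute to these peaks was not tested.

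Some of the peaks lay at starts of transcription that RefSeq lists and GENCODE does not. Within 1 kb of a RefSeq start were 45 peaks (4.11%, interval 3.09 to 5.45), of which 38 starts were computed models and 7 curated transcripts. In 30 the RefSeq gene had the symbol of the host gene, and in 15 another symbol. The latter include 2 peaks in Hist1h2be beside H2bc6, which are symbols of the same histone gene. The share was 13.1% for peaks of 500 bp or more and 2.35% at 200 bp. Among curated starts were those of Ethe1 (a mitochondrial sulfur dioxygenase), 309 bp from the centre of a 1245 bp peak, and of Gpm6a (a neuronal membrane glycoprotein), close to the centre of a 495 bp peak within Wdr17. Computed models included Wnt3, a Wnt ligand, 737 bp from an 856 bp peak with 12.1 CpGs per 100 bp, and Osbp2, close to the centre of a 971 bp peak with 10.4. These genes were chosen after their values were seen. Enhancer peaks in genes had a higher share at RefSeq starts, 7.35% (difference -3.24 points, -6.21 to -0.773). The host records of GENCODE were mostly shared by RefSeq: 1055 of the 1095 peaks were in a RefSeq protein-coding gene, and 1037 in one of the same symbol.

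Motifs were searched on both strands in 300 bp around the centre. The AP-1 motif (TGANTCA), bound by Fos and Jun family factors, was present in 95 of 1095 windows (8.68%, interval 7.15 to 10.5). It was more frequent at enhancer peaks in genes (12.9%, difference -4.24 points, -7.99 to -0.913) and less frequent at promoter peaks (4.43%). Among the intragenic peaks it was found in 12.2% at 200 bp, 4.85% at 300 to under 500 bp and 8.76% at 500 bp or more. RefSeq promoters of 300 bases, 32851 in all, held it in 7.81%. The RUNX motif (TGTGGTT) was in 8.04%, 2.02 points above intergenic peaks, with an interval of 0.136 to 4.04. The interval of the RUNX difference included 0 with centres over 5 kb from a TSS alone (1.69 points), with peaks of at least 500 bp (0.329), after merging peaks within 1 kb (1.08) and with RefSeq starts added (1.76). That of the AP-1 difference did so in the first (-2.98) and second (-3.65) of these. RefSeq promoters held the RUNX motif in 5.27%. The TEAD motif (CATTCCA) was in 5.75%, close to intergenic peaks (5.27%), and in 0 of the 137 wide peaks (upper bound 2.73%). RefSeq promoters held it in 4.29%.

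Most motifs of CpG-rich promoters were less frequent than at promoter peaks. The SP/KLF motif (GGGGCGG) was in 4.66% of windows, compared with 23.1% of promoter peaks (difference -18.5 points, -19.7 to -16.9) and 23.2% of RefSeq promoters. On the 98 peaks with a CpG island it was in 21.4% (14.5 to 30.5), and in peaks of 200 bp in 1.57%. The ETS motif (CCGGAAG) was in 2.83%, compared with 7.30% of promoter peaks and 8.86% of RefSeq promoters, and it reached 8.03% in peaks of 500 bp or more. The NRF1 motif was in 7 windows (0.639%) and the CRE motif (TGACGTCA) in 2 (0.183%), compared with 2.26% and 0.900% of promoter peaks, and 4.60% and 1.79% of RefSeq promoters. The YY1 motif (AAGATGGC) was in 19 windows (1.74%), and the interval of its difference from promoter peaks (1.84%) was -0.758 to 0.878 points. RefSeq promoters held it in 2.75%. The core CTCF motif was in 1.92%, compared with 2.67% of enhancer peaks, 2.58% of intergenic peaks and 2.43% of RefSeq promoters. None of the 9 motifs contains another, and a match says only that the letters are present.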

How the data were processed

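H3K4me3 ChIP-seq was performed in 12 libraries of 6 groups (2 replicates each) with 2 inputs. Per the labels and the study's methods, the authors trimmed reads, aligned them with BWA to mm10, filtered them with SAMtools, merged replicates and called narrow peaks with MACS2. Of the lists the authors deposited, those used here hold positions (chromosome, start, end) of a union of 25431 peaks and 32965 putative enhancers (accessible regions of control cells with H3K27ac and H3K4me1, outside 1 kb of a TSS). The deposited columns of both lists are positions of unit "other", with 0 columns of values per sample. Peak starts count from 0 and enhancer starts from 1, and printed positions count from 1.

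Distances were taken from GENCODE M21, and sequences and the alternative starts from RefSeq GRCm38.p6. Bodies, exons and 403 tRNA genes came from these annotations. CpG islands (16997) were segments over 200 bp with GC over 50% and observed to expected CpGs over 0.6, called with scores of 17 for a CpG and -1 for another base. Computation used pandas 2.3.3, NumPy 2.4.6 and SciPy 1.17.1 in Python 3.11.15, with Matplotlib 3.10.9 for plots, and was tested on simulated data. Named genes were the 5 widest peaks, the 5 most CpG-dense, the 5 hosts with the most peaks, those at the 3 kb limit and, per list, the KMT2, demethylase and study genes or the 3 genes with the most peaks. The marker genes were also named. Genes named by other criteria, such as cluster members, were chosen after their values were seen. The peaks and lists were chosen with earlier results of these data known. Alternatives were RefSeq starts, 5 kb, 500 bp, merging, the left-out regions, and 3 changes of the rule.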

Additional observations from a re-analysis of the deposited data

Results flagged for a closer look

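Positions outside the analysed regions also carried peaks. On chromosome 15, 117 peaks met the rest of the rule, and so did 47 in the left-out segment of chromosome 10. A further 74 peaks lay on 26 unplaced or unlocalised scaffolds, where no GENCODE distance was computed. No control values accompany these lists, and none of these peaks entered a comparison above.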

How the results depend on the processing

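No paired analysis was possible because neither file used here gives a value for any replicate. Among 82 values under an alternative, 0 differences reversed in sign. Counts, shares and medians have no sign and could not reverse. The intervals of 7 differences came to include 0, and 18 shares, medians or counts moved beyond their interval, spread or 1.5 times the count. The other 57 kept direction and side of 0 or stayed within these limits, which does not mean that differences kept their size. Keeping the left-out regions moved none of the results. With centres over 5 kb from every TSS, another peak within 5 kb was found for 16.8%, 9.98% were in exons, 62.8% had a host promoter peak, the median width was 231 bp and 80.2% of windows were between 45% and 55% GC. The differences became 1.71 points (neighbours, from intergenic peaks), -2.98 (AP-1, from enhancer peaks) and 1.69 (RUNX, from intergenic peaks), and all 3 intervals include 0. With only peaks of at least 500 bp in every set, 137 remained, with a median of 729 bp. Of these 32.1% were in exons, 75.9% had a host promoter peak of such width, 42.3% were on an island, 13.1% at a RefSeq start, 48.9% had such a neighbour within 5 kb, 33.6% were between 45% and 55% GC, and 18 listed genes held one. The differences in AP-1 (-3.65 points) and RUNX (0.329) had intervals that include 0, those in neighbours (31.8), host promoter (-10.2) and SP/KLF (-12.4) did not, and the difference in the share of wide peaks could not be computed. With peaks merged within 1 kb, 15.5% had a neighbour, 63.6% a host promoter peak, the median width was 234 bp, RUNX differed by 1.08 points with an interval that includes 0, neighbours by 5.84 and the share of wide peaks by -28.9. With RefSeq starts added, 0 peaks were at a RefSeq start by construction and RUNX differed by 1.76 points, with an interval that includes 0. Apart from the limit to wide peaks, the number of peaks ranged from 822 (5 kb) to 1259 (left-out regions kept). The lists used here give no depth, so how many weaker peaks were missed is unknown. No alternative leaves out a library, since the list is a union over all.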
